A study of Mus musculus with 3 samples.

Results

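Mitosis is carried out by a set of proteins that most dividing cells make in the G2 phase and destroy on the way out of division. Cyclin B binds the kinase CDK1 and starts mitosis, kinetochores tie chromosomes to the spindle and hold the checkpoint, and the chromosomal passenger complex corrects faulty attachments. Anillin, the RhoA activator ECT2 and the centralspindlin complex then build the contractile ring that separates the daughter cells. In the mouse uterus after implantation, stromal cells turn into decidual cells, many of which copy their DNA without dividing and become polyploid, and natural killer (NK) cells multiply among them. The genes described here are 36 genes of mitosis, chosen by symbol from the 32247 gene symbols of the count matrix, and all 36 were found. They fall into 8 roles: cyclin B, CDK1 and its partners, kinetochore and checkpoint, chromosomal passenger complex, spindle, cytokinesis, mitotic protein turnover, and chromosome structure. Genes and roles were chosen with earlier results of these data known.

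The library is from whole uterus of mice that had been housed to 8 weeks, mated and dissected on pregnancy day 7.5. The tissue was dissociated with trypsin, and its labels give no genotype and no number of animals. A sample carrying Prl8a2icre/+ Sun1-GFPLsL/+ and a sample carrying Sun1-GFPLsL/+ alone are not analysed here. The matrix held 16848794 UMIs (unique molecular identifiers, each standing for 1 captured transcript) in 2775 barcodes, and 1812 cells were kept, with a median of 4509.5 UMIs. With 1 library there is no replicate, so no test between cell groups was made, and the 95% intervals given cover counting error only.

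Cells were clustered without the 36 genes and without 159 other cell cycle genes, and clusters were named from markers. The 148 decidual stroma-like cells came from clusters 1 and 15. Cluster 1 was led by genes that include Mt4, Tdo2, Dio3 and Bmp2, the last 3 of them decidual markers, and cluster 15 by Rbp4, Cyp26b1 and Sfrp4, none of which is a marker of the decidual set. The 315 NK and innate lymphoid-like cells came from cluster 6, led by Gzmf, Gzmd and other granzymes with Prf1, and from cluster 2, led by Ifng, Cd7 and Klra4. Decidual cells had a median of 6840 UMIs and 12.2% mitochondrial UMIs, against 5807 UMIs and 3.45% in NK cells.

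The promoters of the members share short sequences, which are printed for 6 members on which the results below turn. The windows run from 150 bases before to 30 bases after the RefSeq start site (GRCm38.p6) and are written 5′ to 3′ on the gene's strand. Capitals mark TTTGAA and TTTAAA, the letters of the cell cycle homology region through which mitosis genes are held down outside G2, and CCAAT, the box bound by NF-Y, on either strand, where the whole match lies in the window. Ccnb1 (chr13:100786457-100786636, minus strand) and Ccnb2 (chr9:70421525-70421704, minus strand) encode cyclins B1 and B2. Anln (chr9:22389177-22389356, minus strand) encodes anillin, and Kif23 (chr9:61946770-61946949, minus strand) the kinesin of centralspindlin. Cenpa (chr5:30666736-30666915, plus strand) encodes the histone H3 variant of centromeres, and Top2a (chr11:99024160-99024339, minus strand) the topoisomerase that untangles sister chromatids.
Ccnb1: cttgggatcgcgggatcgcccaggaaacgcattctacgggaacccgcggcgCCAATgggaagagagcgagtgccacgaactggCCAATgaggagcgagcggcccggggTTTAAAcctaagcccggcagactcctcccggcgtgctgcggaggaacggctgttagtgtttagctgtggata
Ccnb2: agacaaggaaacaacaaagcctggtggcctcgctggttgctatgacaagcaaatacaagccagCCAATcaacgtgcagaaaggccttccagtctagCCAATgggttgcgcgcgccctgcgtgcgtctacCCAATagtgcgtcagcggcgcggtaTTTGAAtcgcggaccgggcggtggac
Anln: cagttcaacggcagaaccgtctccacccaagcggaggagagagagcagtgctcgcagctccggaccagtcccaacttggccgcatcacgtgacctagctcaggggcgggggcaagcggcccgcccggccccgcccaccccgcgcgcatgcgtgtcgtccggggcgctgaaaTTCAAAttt
Kif23: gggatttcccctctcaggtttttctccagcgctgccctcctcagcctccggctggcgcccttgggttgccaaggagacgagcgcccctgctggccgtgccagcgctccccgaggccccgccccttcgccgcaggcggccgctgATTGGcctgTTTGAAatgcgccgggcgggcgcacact
Cenpa: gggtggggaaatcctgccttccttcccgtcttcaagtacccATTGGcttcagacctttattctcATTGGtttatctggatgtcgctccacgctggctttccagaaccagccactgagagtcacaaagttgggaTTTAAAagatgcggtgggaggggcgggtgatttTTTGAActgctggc
Top2a: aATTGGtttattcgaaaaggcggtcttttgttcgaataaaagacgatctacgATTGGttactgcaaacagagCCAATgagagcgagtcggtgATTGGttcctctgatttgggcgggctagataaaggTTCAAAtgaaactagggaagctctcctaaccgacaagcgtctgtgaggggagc

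RefSeq entries were matched for 31 of the 36 members, with windows of 300 bases. TTTGAA occurred in 24 of the 31 (77.4%) and in 17.9% of all 32851 promoters of the table. TTTAAA occurred in 29.0% of the members and 13.2% of all promoters, and CCAAT in 77.4% and 37.4%. A CCAAT and at least 1 of the other motifs stood in 22 of the 31 members (71.0%) and in 10.7% of all promoters. Among the members matched, Anln had TTTGAA but no CCAAT in its window, and Cks2 had CCAAT but neither TTTGAA nor TTTAAA. A match is a description of the letters and does not show a site in use.

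The 36 genes together held 16594 UMIs in the kept cells, or 0.113% of all UMIs. NK and innate lymphoid-like cells had the highest summed level among the named classes, 2337 counts per 1000000 UMIs (CPM, interval 2288 to 2385), with 53.9% of the mitosis UMIs and 26.2% of all UMIs. Mononuclear phagocytes followed at 1519 CPM (1451 to 1589), then endothelium at 1313 (1216 to 1415) and pericytes at 1076 (953 to 1211). Decidual cells had 853 CPM (806 to 902). The lymphocytes of the B and T classes and the epithelium lay between 599 and 666 CPM and their intervals overlapped, so their order is not set. The B cell interval (446 to 957) also spans the decidual one and reaches that of pericytes. The T cell interval (509 to 814) overlaps the decidual one, so the place of B and T cells beside decidual cells is not set either. Undifferentiated stroma at 131 CPM (114 to 150) and mesothelium at 112 CPM (84.7 to 146) were lowest, and their intervals overlapped too.

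The order of these classes is that of pooled UMIs. As a mean over single cells, which gives each cell the same weight, NK cells had 1381 CPM, endothelium 1176, pericytes 962, phagocytes 949, B cells 789 and decidual cells 651. Epithelium at 644 and T cells at 628 were close to decidual cells, with undifferentiated stroma at 160 and mesothelium at 137.

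The level was unequal within both the decidual and the NK class. NK cluster 6 had 2725 CPM and NK cluster 2 had 561 CPM. Decidual cluster 1 had 1181 CPM and decidual cluster 15 had 148 CPM, close to the 185 and 93.6 CPM of the undifferentiated stromal clusters 4 and 5. The cells differed in depth as well, with median UMI counts of 18510 in NK cluster 6 and 3707 in NK cluster 2, and of 9510 and 5319 in decidual clusters 1 and 15. After every cell was thinned to 2000 UMIs, 46.5% of the cells of NK cluster 6 (38.2 to 55.0) and 9.02% of NK cluster 2 (4.59 to 15.6) had at least 3 mitosis UMIs. The same share was 27.4% in decidual cluster 1 (17 of 62 cells, 16.9 to 40.2) and 2.90% in decidual cluster 15 (2 of 69 cells). By class it was 29.3% of NK, 14.5% of decidual and 0.323% of undifferentiated cells, with 49, 17 and 107 shallower cells left out. Unthinned shares were 60.6%, 18.9% and 2.16%.

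**Figure D1:**
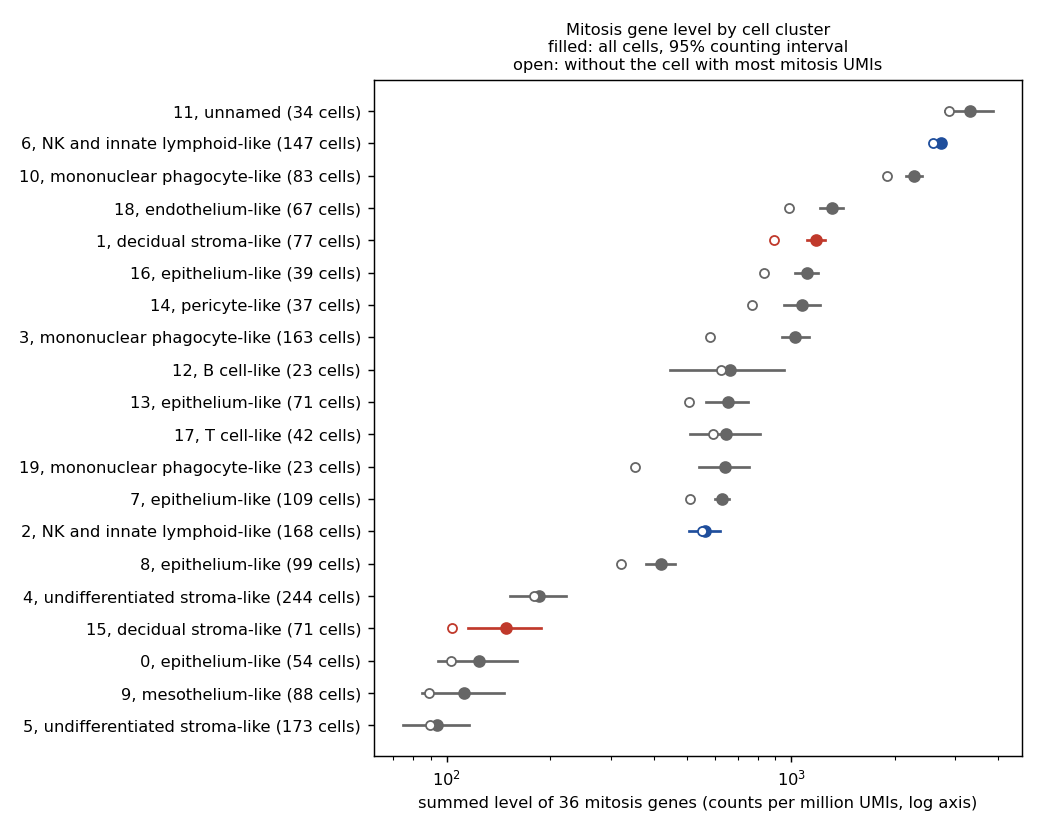
Summed level of the 36 mitosis genes in each of 20 clusters, in CPM on a log axis, with clusters ordered by level. Filled points are all cells of a cluster with the 95% counting interval, open points leave out the cell with most mitosis UMIs, red marks the decidual and blue the NK clusters. NK cluster 6 (2725 CPM) lies above decidual cluster 1 (1181 CPM), and decidual cluster 15 (148 CPM) lies among the undifferentiated stromal clusters.

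A few cells carried most of these counts. In all, 130 of the 1812 cells (7.17%) had 20 or more mitosis UMIs, a limit chosen after the counts were seen, and these held 80.6% of the mitosis UMIs. There were 59 cells with 10 to 19 and 25 cells with 20 to 29 such UMIs, so the limit cuts a continuous range. They were 66 NK cells (20.9% of the class), 14 decidual cells (9.46%), 25 epithelial cells, 14 phagocytes, 7 endothelial cells and 3 pericytes, and 1 cell of an unnamed cluster. No cell of undifferentiated stroma passed, out of 417, but the limit is an absolute count and this class had a median of 3302 UMIs per cell, so this count was not matched for depth. In the decidual class 1 cell held 352 of the 1231 mitosis UMIs (28.6%) and 4 cells held at least 50% of them, while in the NK class 14 cells were needed for 50%. Without the top cell of each class the decidual level was 643 CPM and the NK level 2221 CPM. Without the 4 top cells of each class the decidual level was 460 CPM, under the value over all cells by more than 1.5 times, and the NK level 1973 CPM.

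**Figure D2:**
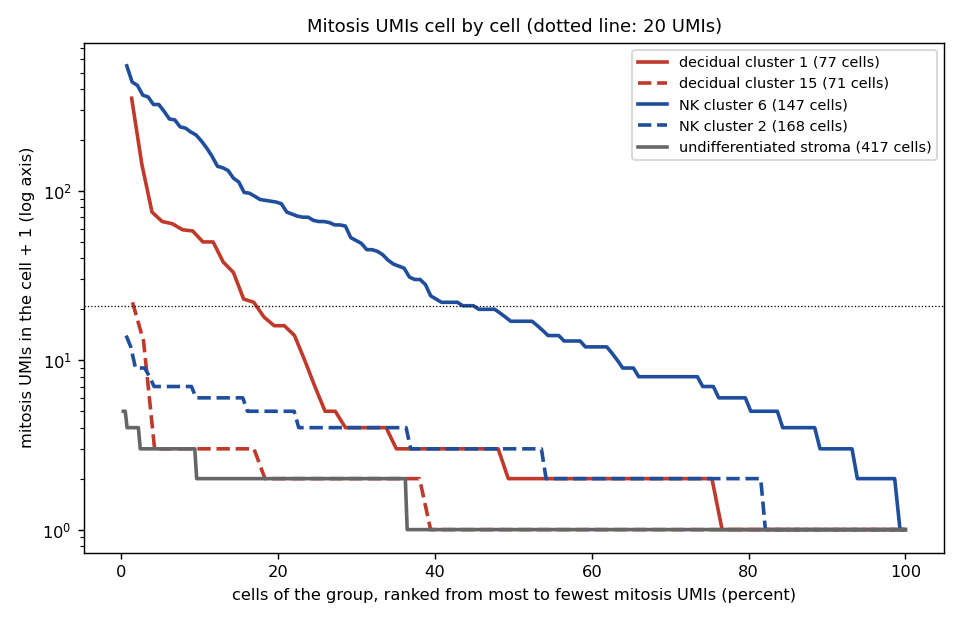
Mitosis UMIs in single cells, plus 1 and on a log axis, against the rank of the cell in its group in percent, for the 2 decidual and the 2 NK clusters and undifferentiated stroma. The dotted line marks 20 UMIs. In NK cluster 6, 66 of 147 cells lie at or above it, against 13 of 77 in decidual cluster 1 and 1 of 71 in decidual cluster 15.

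The 14 decidual cells with 20 or more mitosis UMIs had between 21 and 352 of them, and 13 belonged to cluster 1. Each had at least 16 UMIs of decidual markers, at 5578 CPM over all 14 cells against 4736 CPM in the other decidual cells and 26.8 CPM in the NK cells with 20 or more mitosis UMIs. They had 2 UMIs of the 8 NK markers in all, 8.28 CPM against 13.3 CPM in the other decidual cells. The top cell held 75569 UMIs, 722 of decidual markers and 0 of NK markers. The median mitochondrial share of the 14 cells was 10.6%, against 12.4% in the other decidual cells.

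Across the classes, 24 of the 36 genes had their highest level in NK cells. The exceptions were Cdk1, Cdc20, Plk1 and Ttk in endothelium, Bub1, Nuf2 and Prc1 in pericytes, Cenpa in T cells, Cks2 in B cells, Racgap1 in phagocytes, Kif23 in epithelium and Anln in decidual cells. Some of these first places lie within counting error, as for Bub1 at 31.2 CPM in pericytes and 30.6 CPM in NK cells and for Anln at 32.6 CPM in decidual cells and 30.9 CPM in endothelium. A gene was counted as higher or lower where the sides held at least 50 UMIs together, the ratio was at least 2-fold and its interval excluded 1. By this rule 31 of the 36 were higher in NK cells than in all other kept cells, against 11.7% of all genes measured. All 36 were lower in undifferentiated stroma, where 24.2% of all genes were lower and 19.8% higher. In the epithelium 26 were lower (27.8% of all genes) and Kif23 alone was higher (11.4% of all genes). In mesothelium 31 were lower (16.5% of all genes). Undifferentiated stroma held 201 mitosis UMIs in all and mesothelium 55, with under 50 of any member. Every member thus passed the filter through the other cells, and the filter sets part of both counts. The endothelium, cells that line vessels, had 5 genes higher, Anln, Cdc20, Cdk1, Plk1 and Ttk, a share near the 13.8% of all genes, and Cenpa and Cks2 lower (15.1%). Decidual cells against all others had Anln higher (9.50% of all genes) and Cenpa, Incenp, Kif11 and Kif23 lower (24.7% of all genes). Phagocytes had Racgap1 higher (11.1% of all genes) and no member lower (30.2%), and pericytes had Prc1 higher (10.9%) and Incenp, Kif23 and Racgap1 lower (11.7%). T cells had Cenpa higher (7.92%) and Birc5, Cenpe, Cenpf, Kif11 and Mki67 lower (7.72%), and B cells had Cenpa and Cks2 higher (6.81%) and Mki67 lower (3.54%). No member reached 50 UMIs in T or B cells, so there too each passed only with the UMIs of the other cells.

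**Figure D3:**
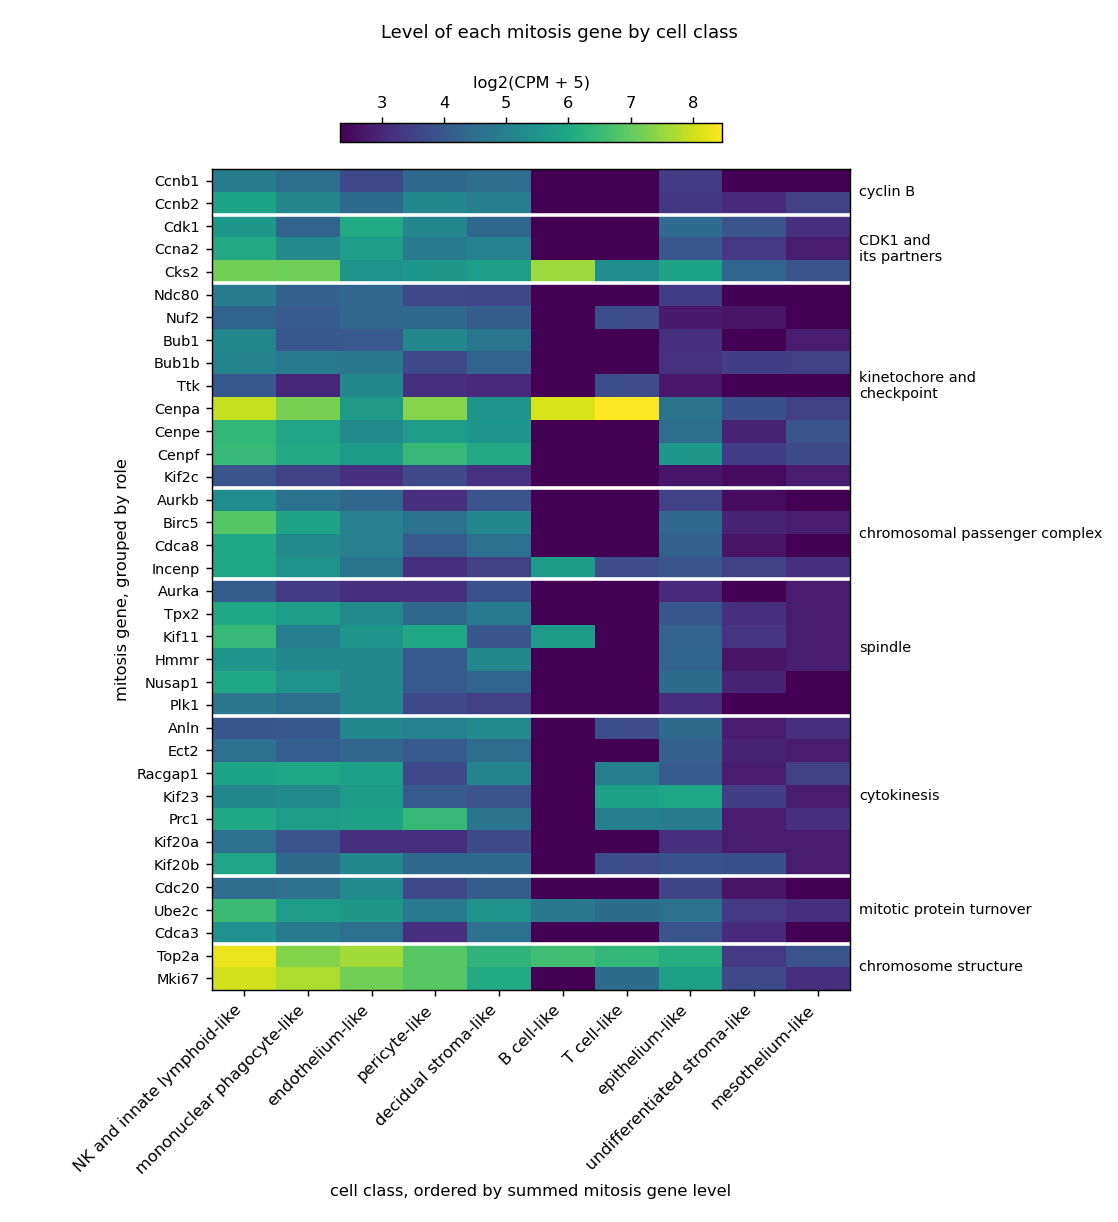
Level of each of the 36 mitosis genes in the 10 named cell classes, as log2(CPM + 5), with genes grouped by role and classes ordered by summed level. Most genes are highest in the leftmost column, NK cells (24 of 36), and Cenpa, Cks2 and Kif23 are also high in classes where most other members are at or near 0.

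Decidual cells were then compared with NK cells, the pair of classes named with the choice of these genes. Both held cells rich in mitosis UMIs, as did other classes. Of 34 members with at least 50 UMIs, 21 were at least 2-fold lower in decidual cells, where 24.0% of 8606 genes measured were, and 1, Anln, was at least 2-fold higher, where 18.7% were. The remaining 12 were Aurka, Bub1, Bub1b, Ccnb1, Cdc20, Cdca3, Cenpe, Cenpf, Ect2, Hmmr, Nuf2 and Racgap1. The median log2 ratio of the 34 was -1.27, against -0.21 over all genes measured. Only Cenpa, Cenpe, Cenpf, Cks2, Mki67, Top2a and Ube2c held 50 or more UMIs in decidual cells alone. The other members measured passed only with their NK UMIs, so the filter sets part of the count of lower members and of this median. Summed over the 36 genes, the decidual level was 2.74-fold lower (2.58 to 2.91). Between the clusters that held most of these UMIs, decidual cluster 1 and NK cluster 6, the sum was 2.31-fold lower (2.17 to 2.46). There, under the same filter over both sides, 17 members were lower (22.6% of all genes) and Anln again alone higher (17.2% of all genes).

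Cytokinesis was one of the roles least reduced, by 1.82-fold (1.56 to 2.13), and its members differed among themselves. Anln (chr9:22332012-22389188, minus strand; coordinates here and below are GENCODE M21 on GRCm38) had 47 UMIs in decidual and 41 in NK cells, 32.6 and 10.7 CPM, a ratio of 3.04 (1.96 to 4.74). Without the top cell of each class its ratio was 2.36 (1.46 to 3.80), and between clusters 1 and 6 it was 3.27 (2.07 to 5.15). Ect2 had 26 and 71 UMIs and a ratio of 0.971 (0.595 to 1.54). The top decidual cell held 14 of the 26, and without the top cells the ratio was 0.553 (0.271 to 1.04). Racgap1, the partner of KIF23 in centralspindlin, had a ratio of 0.538 (0.377 to 0.753). The kinesins Kif20a, Kif20b and Kif23 and the microtubule bundler Prc1 were all at least 2-fold lower, from 0.424 for Kif20a to 0.302 for Kif20b (0.189 to 0.461). Without Anln the cytokinesis sum was 2.29-fold lower (ratio 0.438, 0.366 to 0.521).

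Cyclin B was 1.78-fold lower in decidual cells (1.36 to 2.38). Ccnb1 (chr13:100778650-100786570, minus strand) had 26 UMIs in decidual and 95 in NK cells, a ratio of 0.726 (0.451 to 1.13) whose interval includes 1. The top decidual cell held 15 of the 26, and without the top cells the ratio was 0.375 (0.180 to 0.708), which meets the rule for a lower level. Ccnb2 (chr9:70407692-70421547, minus strand) had 38 and 208 UMIs, a ratio of 0.485 (0.334 to 0.687). Between decidual cluster 1 and NK cluster 6 neither cyclin met the rule, at 0.806 for Ccnb1 and 0.573 for Ccnb2. CDK1 and its partners were lower by 2.59-fold (2.16 to 3.13), with all 3 members counted as lower. Their ratios were 0.457 for Ccna2, the cyclin A that acts before cyclin B, 0.367 for Cdk1 and 0.360 for the CDK-binding subunit Cks2. The top decidual cell held 13 of the 23 Cdk1 UMIs and 31 of the 72 Cks2 UMIs, and without the top cells these ratios were 0.172 and 0.225.

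Kinetochore and checkpoint genes were 2.52-fold lower together (2.23 to 2.86), and much of this was Cenpa. Cenpa (chr5:30666777-30674830, plus strand) had 58 UMIs in decidual and 911 in NK cells, 40.2 and 238 CPM, a ratio of 0.169 (0.127 to 0.220). Without Cenpa the other 8 genes were 1.70-fold lower (ratio 0.589, 0.510 to 0.678), less than the sum of all 36. Ndc80, which holds the microtubule, was lower at 0.301 (0.145 to 0.562). Its partner Nuf2 had 0.853 (0.472 to 1.47), the large coiled-coil protein gene Cenpf 0.735 (0.573 to 0.935), the kinesin gene Cenpe 0.531 and the checkpoint kinase gene Bub1 0.703, none of which met the rule. Among cells with at most 10% mitochondrial UMIs, a share that differed between the classes, the log2 ratio of the kinetochore sum was -1.58, against -1.33 over all kept cells. Ttk and Kif2c had fewer than 50 UMIs over both classes.

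The chromosomal passenger complex was 3.89-fold lower (3.15 to 4.85), with all 4 subunits counted as lower. Its scaffold Incenp had the lowest ratio of all members over all cells, 0.110 (0.0496 to 0.213), from 9 UMIs in decidual and 217 in NK cells. Cdca8, which encodes borealin, had a ratio of 0.327 (0.211 to 0.489), the kinase gene Aurkb 0.299 and the survivin gene Birc5 0.284. Without the top cells Cdca8, with 15 of its 27 decidual UMIs in one cell, fell below both, at 0.159 against 0.261 for Aurkb and 0.218 for Birc5. Spindle genes were 2.86-fold lower (2.39 to 3.43). Among them the motor gene Kif11 had 0.127 (0.0703 to 0.213), and Aurka, the centrosomal kinase, had 0.774 (0.394 to 1.43) from 14 and 48 UMIs. The other spindle genes were Hmmr at 0.746, Tpx2 at 0.406, Plk1 at 0.281 and Nusap1 at 0.259. Nusap1 had 0.107 without the top cells, next to 0.109 for Incenp.

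The genes of mitotic protein turnover were 2.02-fold lower (1.63 to 2.51). Cdc20, which turns on the anaphase-promoting complex, had the highest ratio at 0.702 (0.393 to 1.19), and Ube2c, the ubiquitin-conjugating enzyme of that complex, the lowest at 0.450 (0.334 to 0.597). The top decidual cell held 42 of the 57 Ube2c UMIs, and without the top cells the ratio was 0.141 (0.0777 to 0.236). Cdca3 had 0.505. Top2a and Mki67, which coats mitotic chromosomes, were 4.11-fold lower together, with ratios of 0.244 (0.199 to 0.297) and 0.242 (0.193 to 0.300). Leaving out the top cell of each class kept Anln higher and brought 6 more members under the 2-fold limit: Aurka, Bub1b, Ccnb1, Cdca3, Cenpe and Racgap1. Beside the members given above, it moved Aurka to 0.430, Kif20b to 0.197 and Prc1 to 0.208, each by more than 1.5 times. When every cell was thinned to 2000 UMIs before summing, few UMIs were left, 0 members were counted as higher and 4 as lower, and the cytokinesis log2 ratio of -0.47 had an interval from -1.11 to 0.14.

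**Figure D4:**
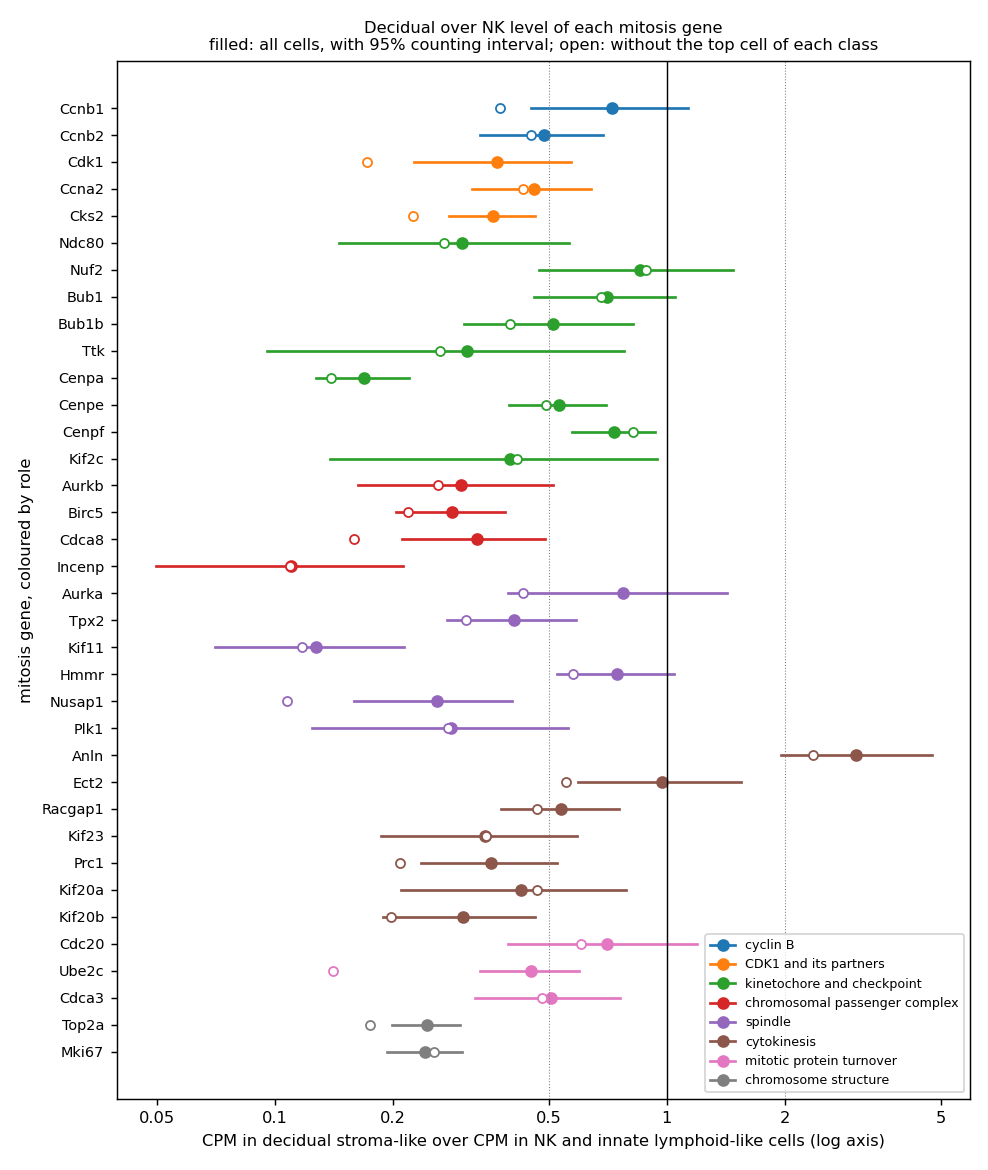
Ratio of the decidual to the NK level of each mitosis gene on a log axis, coloured by role. Filled points with 95% counting intervals are all cells, open points leave out the cell of each class with most mitosis UMIs, and dotted lines mark 2-fold. Anln stands to the right at 3.04, and of the filled points Incenp at 0.110 and Kif11 at 0.127 lie farthest to the left.

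The make-up of the mitosis UMIs was compared apart from their amount, as the share of each role among the 1231 decidual and 8944 NK mitosis UMIs. Cytokinesis genes held 15.9% in decidual and 10.6% in NK cells, a ratio of shares of 1.51 (1.29 to 1.76), and 12.6% against 10.1% with Anln left out, a ratio of 1.24 (1.04 to 1.48). Their share was above the decidual one in epithelium (23.1%), undifferentiated stroma (19.4%, 14.2 to 25.6), T cells (18.9%), endothelium (17.5%) and mesothelium (11 of 55 UMIs). It was below in pericytes (14.9%), phagocytes (12.5%) and B cells (0 of 29 UMIs). The larger decidual share is thus a difference from NK cells and does not set decidual cells apart from the other classes. Cyclin B held 5.20% against 3.39%, a ratio of 1.53 (1.15 to 2.02), but the interval included 1 with no filter on cells (1.24, 0.975 to 1.57) and without the 4 top cells of each class (1.39, 0.891 to 2.10). Kinetochore and checkpoint genes held 24.2% against 22.3%, a ratio of 1.09 (0.959 to 1.23) whose interval includes 1. This ratio depended on the cells used: it was 0.953 (0.802 to 1.12) with at most 10% mitochondrial UMIs, 1.14 (1.04 to 1.26) with no filter and 1.29 (1.12 to 1.47) without the top cell of each class. With Cenpa left out, kinetochore and checkpoint genes held 20.5% against 13.5%, a ratio of 1.52 (1.32 to 1.75). The chromosomal passenger complex, at 7.80% against 11.1%, and chromosome structure, at 16.2% against 24.4%, had smaller shares in decidual cells. The intervals treat UMIs as independent, while 4 cells hold at least 50% of the decidual ones, so they are too narrow for a difference between cell types.

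The same shares were also taken cell by cell in the cells with 20 or more mitosis UMIs, as a description of 14 decidual and 66 NK cells. These cells hold most of the UMIs pooled above and come from 1 library. They are not replicates, and their values are no separate support for Anln or a role picked from the pooled sums. Anln had at least 1 UMI in 11 of the 14 decidual cells (78.6%) and in 24 of the 66 NK cells (36.4%). The median total was 10896.5 UMIs in the former and 26238 in the latter, so Anln was found more often in the shallower cells. In order of falling mitosis UMIs, the decidual cells held 12, 4, 0, 2, 3, 4, 0, 3, 5, 2, 1, 0, 2 and 1 UMIs of Anln. Its median share of a cell's mitosis UMIs was 4.09% in decidual and 0% in NK cells, and its pooled share 3.74% and 0.490%. The largest share of Anln in an NK cell was 3.26%, below the decidual median.

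The median share of all cytokinesis genes was 16.6% in these decidual cells and 9.75% in the NK cells, with 11 of 14 decidual cells above the NK median. Kinetochore and checkpoint genes had medians of 28.1% and 21.4% (13 of 14 above), and Cenpf alone 8.02% and 1.88% (12 of 14 above). Cyclin B had 6.04% and 2.81% (9 of 14 above), and Ccnb1 had no UMI in 8 of the 14 cells. The chromosomal passenger complex had 6.30% and 11.5%, with 1 of 14 decidual cells above the NK median, and Top2a had 6.27% and 13.3%. Anln was also seen in endothelial cells with 20 or more mitosis UMIs, in 7 of 7 with a median share of 3.33%, and in 17 of 25 epithelial ones with a median of 2.17%. NK cells and phagocytes, in which 8 of 14 such cells held Anln with a median share of 0.732%, had the lower shares of Anln.

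Against undifferentiated stroma, the cells from which decidua forms, decidual cells had a summed level 6.51 times as high. Only 8 members reached 50 UMIs over both classes, and all 8 were higher in decidual cells (8.75% of all genes measured), which they had to be to pass in a comparison where the other side is so low, so nothing is read from their count. They were Anln, Cenpa, Cenpe, Cenpf, Cks2, Mki67, Top2a and Ube2c. Anln had 47 UMIs against 3, a ratio of 16.7 (5.36 to 83.6), and Cks2, with 72 against 23, had the lowest ratio, 3.33 (2.06 to 5.58). Ccnb1 had 26 against 0 UMIs, with 15 of the 26 in one cell. With the top cell left out 5 members passed, and with the 4 top cells left out 3.

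Within the decidual class, cluster 1 had a sum 7.96 times that of cluster 15, and 7 members reached 50 UMIs over both clusters. Cluster 15 held 2 to 9 UMIs of each, so they passed through cluster 1 and had to be higher, and nothing is read from their count beside the 21.5% of all genes higher and 6.85% lower. They ranged from Mki67, with 89 against 2 UMIs, to Cenpe, with 52 against 9 and a ratio of 2.69 (1.31 to 6.21). Within the NK class, cluster 6 had a sum 4.86 times that of cluster 2. Of the 32 members measured 31 were higher in cluster 6 (17.0% of all genes), but all except Cenpa and Cks2 had under 50 UMIs in cluster 2 and passed through cluster 6, so the filter largely sets this count. Ube2c had 335 against 1 UMIs, Tpx2 221 against 1, and Ccnb1 95 against 0. The exception was Cenpa, with 239 CPM in cluster 6 and 235 CPM in cluster 2, a ratio of 1.02 (0.858 to 1.21).

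The members also differed in how far their UMIs lay in cells rich in the others. For most genes 72.7% or more of the UMIs were in cells with 20 or more UMIs of the other 35 genes, up to 94.5% for Hmmr and 94.1% for Kif2c. Kif23 at 47.4%, Cenpa at 50.6% and Cks2 at 53.7% stood below the rest, with Ect2 next at 72.7%. These 3 genes are thus the members with the largest part of their counts in other cells.

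**Figure D5:**
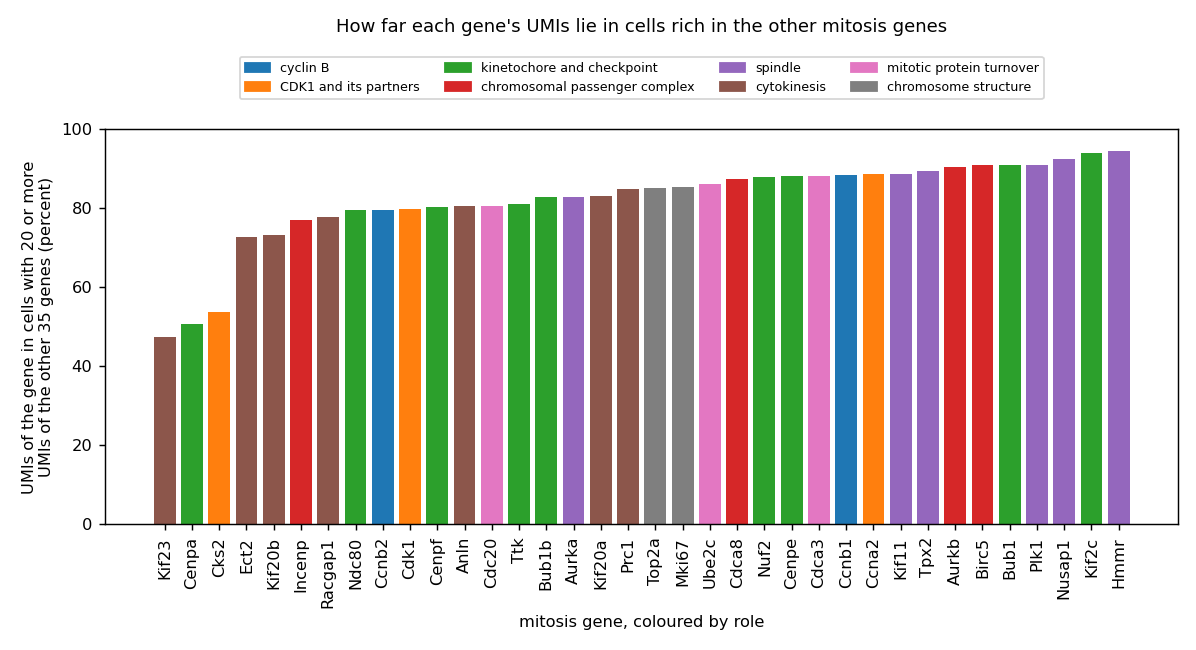
Share of each gene's UMIs, in percent, that lay in cells with 20 or more UMIs of the other 35 mitosis genes, with bars coloured by role. Kif23, Cenpa and Cks2 lie between 47.4% and 53.7%, and the other members at 72.7% or above.

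Outside the cells with 20 or more mitosis UMIs, Cenpa had 189 CPM in NK cells (170 to 210), 350 in T cells (250 to 477), 276 in B cells (142 to 482) and 105 in pericytes. It had 3.33 CPM in decidual cells and 9.13 CPM in undifferentiated stroma. In NK cluster 2, 78 of 168 cells (46.4%) held a Cenpa UMI at a median of 3707 UMIs per cell, against 1 of 88 mesothelial cells (1.14%) at 5313.5. The proportions differed from those of the cells rich in mitosis UMIs: there were 0.522 Cenpa UMIs per Top2a UMI in the 66 NK cells (0.470 to 0.578), 4.60 in NK cluster 2 (3.18 to 6.83) and 4.44 in T cells (2.12 to 10.4). In decidual cells with 20 or more mitosis UMIs the value was 0.607 (0.424 to 0.860), and its interval overlapped that of the NK cells. In lymphocytes with few mitosis UMIs, Cenpa was thus high relative to Top2a.

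Kif23 (chr9:61915905-61946774, minus strand) had 42.4 CPM in the other epithelial cells (36.6 to 48.9), against 10.5 in the other NK cells and 1.66 in the other decidual cells. Epithelial cluster 7 held 116 of these 190 UMIs, spread over 53 of 96 cells (55.2%) at a median depth of 24433 UMIs over the cluster, and mesothelium held 1 UMI in 88 cells. Cluster 13 had the highest level, 167 CPM (124 to 220). That cluster has a median of 16.7% mitochondrial UMIs, and its leading genes include Ccnb1ip1, Svopl and Casp4. The part of either in the Kif23 level was not tested. None of its 10 leading genes is an epithelial marker, which holds for every epithelial cluster. Cks2 outside the cells rich in mitosis UMIs had 184 CPM in B cells, 115 in phagocytes and 76.1 in NK cells.

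The wider cell cycle was read from 3 further gene lists. In decidual against NK cells, 40 of the 49 S phase genes measured were lower and 2 higher, where 24.0% of all genes were lower and 18.7% higher. Mcm5, part of the replicative helicase, had a ratio of 0.120 (0.0744 to 0.184), Pcna, the polymerase clamp, 0.183 (0.148 to 0.226), Fen1 0.0510 and Pole 0.0435. The 2 higher ones were the subunits of ribonucleotide reductase, Rrm2 at 9.16 (8.02 to 10.5, with 988 against 286 UMIs) and Rrm1 at 2.33 (2.07 to 2.63). Mcm5 with 22 decidual against 487 NK UMIs, Fen1 with 4 against 208 and Pole with 1 against 61 passed the UMI filter only with their NK UMIs. Pcna, with 96 decidual UMIs, did not need them. The filter thus sets part of the count of lower S phase genes. Summed over the 51 genes of the list, the ratio was 0.556 (0.535 to 0.579). Of 69 other G2 and mitosis genes measured, 44 were lower (24.0% of all genes) and 2 higher (18.7%), Cdc25b at 3.13 (2.06 to 4.79) and Wee1 at 2.74 (1.61 to 4.69), the phosphatase and the kinase that act against each other on CDK1. Ncaph and Stmn1 were lowest, at 0.0835 and 0.124. With 4 and 39 decidual against 127 and 834 NK UMIs, both passed the filter only with their NK UMIs. The filter sets part of this count too, and the sum of the list had a ratio of 0.397 (0.383 to 0.410). Foxm1, a transcription factor for mitosis genes, at 0.790 (0.402 to 1.46), and Pttg1, the securin gene, at 0.758 (0.449 to 1.23), had intervals that include 1.

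Of 18 measured genes of cell cycle exit and endoreduplication, 3 were higher in decidual cells (16.7%) and 10 lower (55.6%), so the share higher was near the 18.7% of all genes, with 24.0% of all genes lower. Those higher were Cdkn1c, the CDK inhibitor p57, with 90 against 3 UMIs and a ratio of 79.6 (26.4 to 393), and E2f7 and E2f8, the atypical E2F repressors known to act in endocycles, at 5.08 (3.04 to 8.71) and 3.18 (2.26 to 4.49). Ccnd3, a D cyclin known in decidual cells, had 1.68 (1.30 to 2.16), short of 2-fold. Ccnd2 with 3 against 367 UMIs, and Gmnn, the inhibitor of licensing, at 0.144, were lowest, and Cdkn1a was lower at 0.363 (0.244 to 0.524). Ccnd2, Gmnn with 18 decidual UMIs and Cdkn1a with 33 passed the filter only with their NK UMIs. The filter thus sets part of the count of lower genes here as well. The sum of the list had a ratio of 0.720 (0.671 to 0.773). Against undifferentiated stroma, Cdkn1c had 62.4 CPM in decidual cells and 46.9 CPM in stroma, a ratio of 1.33 (0.964 to 1.84) whose interval includes 1. The high Cdkn1c ratio is thus a difference from NK cells, and no difference from stroma was shown. E2f8 was higher than in stroma, at 2.59. Between decidual clusters 1 and 15 the intervals of Cdkn1c, at 1.21, and E2f8, at 0.88, included 1. These lists were chosen with earlier results of these data known, and their directions are a description of this library.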

How the data were processed

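The authors deposited UMI counts per gene and barcode in sparse form. The file headers name Cell Ranger 4.0.0, and the submitters' processing notes name mm10. The sources read for this work do not state how cells were called, which annotation was used or whether counting was stranded. Members that overlap a gene on the other strand, such as Ccna2 with Exosc9 and Ube2c with Tnnc2, could hold reads of both.

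A barcode needed 500 or more detected genes and no more than 20% mitochondrial UMIs, and 1825 of 2775 barcodes met both. Doublets (13, or 0.712%, found by Scrublet within scanpy 1.11.5) were then taken out. Leiden clustering at resolution 1 on 2000 variable genes, 30 components and 15 neighbours gave 20 clusters, named from 163 markers in 23 sets. A cluster stayed unnamed with under 3 detected markers, with leading genes of another class, or at a median UMI count under the library's divided by 3 with none of its markers among its 10 leading genes. Other tools were Python 3.11.15, numpy 2.4.6, scipy 1.17.1 and pandas 2.3.3.

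Group sums of counts were divided by the group's total. Sums have exact Poisson, ratios exact conditional binomial and shares Clopper-Pearson 95% intervals, which cover counting error only. The size rule was tested on simulated data. The members, their roles and the lists were chosen with earlier results of these data known. All 36 members may be named. Of the other lists, the 2 highest and 2 lowest ratios that met the size rule are named, and a fixed set of cell cycle regulators where they have 50 UMIs. Role sums without Anln or Cenpa, the limit of 20 mitosis UMIs and the Cenpa to Top2a ratio were added after the values were seen. Promoters are RefSeq's for GRCm38.p6. Gene coordinates were matched by identifier and are 1-based.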

Additional observations from a re-analysis of the deposited data

Results flagged for a closer look

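Mitosis UMIs were also found in cells that no comparison uses. Unnamed cluster 11, with 34 cells and a median of 1261.5 UMIs, held 157 mitosis UMIs, or 3298 CPM (2802 to 3856), the highest level of the 20 clusters, and 29 of its cells held at least 1. Top2a had 23 of these UMIs, Ube2c 11, Cks2 10, Birc5 9 and Anln 0, and 1 cell held 33 of the 157. Its leading genes include Igf2bp1, H19, Hand1, Lin28a and Igf2, and it was left unnamed for its low UMI count.

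The 963 barcodes that were not kept held 2342 mitosis UMIs, or 1052 CPM (1010 to 1096), close to the 1135 CPM of the kept cells. The median mitochondrial share of the 963 barcodes was 24.8%, and 25 of them had 20 or more mitosis UMIs.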

How the results depend on the processing

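No paired analysis was possible because only 1 library was analysed, and for the same reason no replicate could be left out. Of 160 values under other settings, none whose interval excluded 1 at the chosen setting turned its direction. The ratio of kinetochore shares, whose interval included 1, turned from 1.09 to 0.953 with at most 10% mitochondrial UMIs. Of those that answer a comparison, 103 stayed within the counting interval or 1.5 times the count, and 39 moved beyond it.

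Without the top cell of each class the decidual level was 643 CPM, the NK level 2221 CPM, the members higher in decidual than undifferentiated cells 5, the decidual to NK log2 ratio of cytokinesis -1.23 and the ratio of kinetochore shares 1.29. Without the 4 top cells of each class, a setting chosen after seeing the data, these levels were 460 and 1973 CPM, the members 3, and the log2 ratios -1.48 for cytokinesis, -1.81 for kinetochore and -1.62 for cyclin B genes, with Cenpa at -3.65. The filters on cells changed the size of the decidual class more than that of the NK class. There were 148 decidual and 315 NK cells at the chosen setting, 58 and 252 with at most 10% mitochondrial UMIs, and 322 and 344 with no filter. With at most 10% mitochondrial UMIs the members were 4 and the kinetochore log2 ratio -1.58. With no filter the decidual level was 1016 CPM, the members 18, and the log2 ratios -0.56 for cytokinesis and -1.01 for kinetochore genes. Per cell they were -1.18 and -1.65.

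Thinning every cell to 2000 UMIs left few UMIs to compare. Against NK cells 0 members were then higher and 4 lower, and 0 were higher than in undifferentiated stroma. The log2 ratios were -0.47 for cytokinesis, -0.68 for kinetochore and -0.18 for cyclin B genes, with Anln at 3.02. A minimum of 20 UMIs in place of 50 gave 24 members higher than in undifferentiated stroma. As means of single cells the levels were 651 CPM in decidual, 1381 in NK and 160 in undifferentiated cells. At resolution 2 undifferentiated stroma had 106 CPM and 0% of thinned cells with 3 or more mitosis UMIs. With 2 or more UMIs this share was 50.4% in NK and 2.26% in undifferentiated cells, with 5 or more 17.3% and 0%, and after thinning to 1000 UMIs 8.39% in decidual, 15.5% in NK and 0% in undifferentiated cells.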

Other observations

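The mitosis genes did not keep one proportion to the S phase genes across the classes. Mitosis UMIs per S phase UMI were 0.962 in pericytes (0.812 to 1.14), 0.915 in phagocytes (0.859 to 0.974), 0.630 in NK cells (0.614 to 0.647) and 0.414 in decidual cells (0.387 to 0.442). They were 0.176 in undifferentiated stroma (0.151 to 0.205) and 0.152 in mesothelium. Epithelium had 0.577 and endothelium 0.549. B cells had 0.446 (0.278 to 0.701) and T cells 0.378 (0.285 to 0.496), and both intervals overlapped the decidual one. In decidual cells the S phase sum of 2063 CPM includes 685 CPM of Rrm2 and 349 CPM of Rrm1.

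Phagocyte cluster 10, led by the macrophage genes Pf4, C1qa and Mrc1, had 2275 CPM of mitosis genes (2152 to 2404) in 83 cells. Monocyte-led cluster 3 had 1030 CPM, of which 1 cell held 220 of 472 UMIs, and 580 CPM without that cell. Among the epithelial clusters, cluster 16 had the highest level at 1110 CPM and cluster 0, led by Spink1, Prss29 and Prss28, the lowest at 124 CPM.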
